A study of Mus musculus with 6 samples.

Results

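The nuclear-encoded subunits of respiratory complexes II, III, IV and V and cytochrome c were examined in marrow cells of mice with colitis and of control mice. Members were the rows of the deposited table whose Ensembl gene identifier carries the mouse symbol Sdha, Sdhb, Sdhc, Sdhd, Cyc1 or Cycs, or a symbol that starts with Uqcr, Atp5, Cox4, Cox5, Cox6, Cox7 or Cox8. The 7 rows whose symbols mark them as pseudogenes with the ending -ps were left out. This gave 51 of 56750 rows, with 4 genes of complex II, 9 of complex III, 1 of cytochrome c, 19 of complex IV and 18 of complex V. The study profiled RNA of cells sorted as LSK cells (lineage-negative, Sca1-positive and cKit-positive), a gate enriched for hematopoietic stem cells and early progenitors, from femur marrow of C57BL/6 mice. The DIC group, short for colitis induced with dextran sulfate sodium (DSS), received 2.5% DSS for 5 days and comprised 3 mice and 3 libraries. The control group comprised 3 mice and 3 libraries. The text calls the libraries by their column numbers, which are 1, 2 and 3 for DIC and 1, 2 and 4 for control. The labels say no more of how replicates were made, so the p-values cover the spread of these 6 libraries, which may be partly technical.

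These complexes form the later part of the mitochondrial respiratory chain. Complex II (succinate dehydrogenase) passes electrons from succinate to ubiquinone, complex III (the cytochrome bc1 complex) passes them on to the soluble carrier cytochrome c, and complex IV (cytochrome c oxidase) passes them from cytochrome c to oxygen. Complexes III and IV pump protons, and complex V (ATP synthase) lets protons flow back through a rotating ring and makes ATP. Complex II is encoded wholly in the nucleus, while complexes III, IV and V each also hold subunits made from mitochondrial DNA. Hematopoietic stem cells are known for a reliance on glycolysis at rest, and oxidative phosphorylation is known to increase as they differentiate.

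Values are TPM, a relative abundance corrected for transcript length and scaled to the same total in every library, so that levels can be compared between genes and a gene that takes more of the total leaves less for all others. The sequencing depth behind a TPM value is unknown. Between 20474 and 22720 genes lay above 0 TPM in a library, and 13496 genes that reached 1 TPM in 3 or more libraries were tested. The markers of the sort were present, Kit (which encodes cKit) at 54.2 to 99.5 TPM and Ly6a (Sca1) at 15.5 to 49.9 TPM. All 16 genes of a neutrophil marker list were also above 0 in every library. Their summed level was 22.9%, 15.6% and 19.2% of all TPM in DIC 1, 2 and 3 and 4.27%, 12.7% and 3.04% in controls 1, 2 and 4. Control 2 thus lay nearer to the DIC libraries than to the other controls on these markers.

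Nearly all subunits had lower levels in DIC, by a similar and modest amount, and no single subunit passed the test. Of the 51 members, 46 passed the filter on low values, and 44 of these had a negative log2 fold change, where 58.5% of all tested genes did. Their median log2 fold change (DIC minus control, on the log2(TPM + 1) scale) was -0.40, beside -0.08 over all tested genes, and single values ran from -1.21 for Cox6a2 to 0.19 for Cox6b2. With limma and Benjamini-Hochberg adjustment over all tested genes, 0 members passed an adjusted p of 0.05 (0.0593% of all tested genes did), and their adjusted p lay between 0.212 and 0.8. At an unadjusted p under 0.05, 20 members were lower and 0 higher, where 13.8% of all tested genes were lower. In 24 members the groups did not overlap, with all DIC values below all control values, against 18.4% of all tested genes, and in 0 members every DIC library lay above every control, against 7.08%. In bulk RNA, fewer cells of a type with high levels cannot be told apart from less RNA per cell.

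The order of the libraries was much the same from gene to gene. Control 1 held the highest value of the 6 libraries for 40 of the 46 tested members, and DIC 1 the lowest for 30. Controls 1 and 4 both lay above every DIC library for 42 members, against 30.9% of all tested genes, the exceptions being Uqcrc1, Cox6b2, Cox6c and Cox7b. Control 2 was the lowest of the 3 controls for 43 members, and for 21 members it lay at or below the highest DIC library. Together the members took 1.75%, 1.85% and 1.93% of all TPM in DIC 1, 2 and 3, 2.81% in control 1, 1.94% in control 2 and 2.53% in control 4. Control 2 was the lowest control on this share and the highest control on the neutrophil list. The part of the neutrophil transcripts in the lower member levels was not tested.

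**Figure D1:**
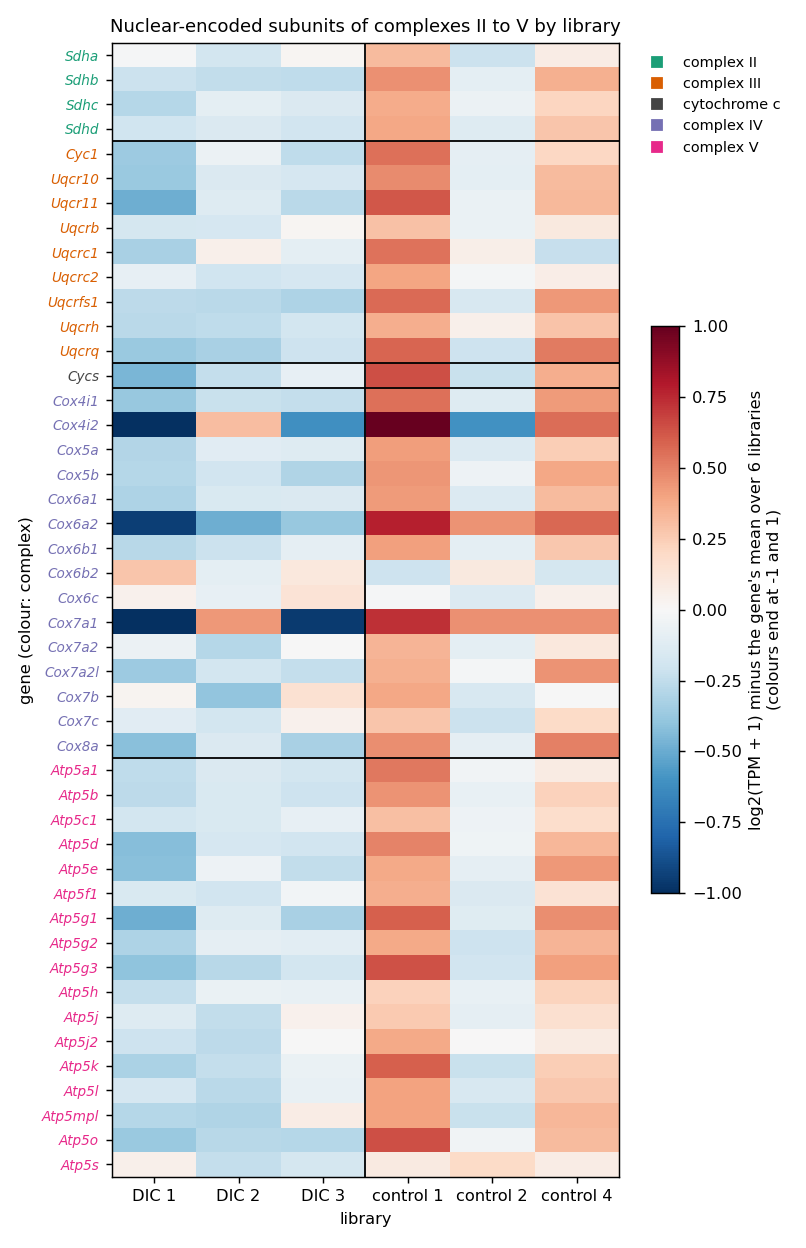
Heat map of the 46 tested genes (rows, grouped by complex) in the 6 libraries (columns), coloured by log2(TPM + 1) minus the gene's own mean over the 6 libraries. Control 1 is the highest library for 40 genes, and control 2 resembles the DIC libraries more than controls 1 and 4 do, while Cox6b2 and Cox6c stand apart from the other rows.

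Complex II has a flavoprotein that oxidizes succinate (Sdha), an iron-sulfur protein (Sdhb) and a pair of membrane anchors (Sdhc and Sdhd). Sdhb (ENSMUSG00000009863) was at 193, 189 and 188 TPM in DIC 1, 2 and 3 and at 308, 209 and 287 TPM in controls 1, 2 and 4. All DIC libraries were below all controls, with control 2 the nearest to them. The means were 189.9 ± 2.40 against 268 ± 52.3 TPM (SD, n = 3 each), and the log2 fold change with its SE was -0.48 ± 0.16 (limma adjusted p = 0.213). Sdhc was at 100.4, 115 and 111 TPM in DIC, against 159, 118 and 143 TPM in controls 1, 2 and 4. Sdhd, the most abundant subunit of the complex, measured 235, 243 and 236 TPM in DIC, against 352, 246 and 327 TPM in the controls. For both anchors the groups did not overlap but control 2 lay just above the highest DIC library (log2 fold changes -0.35 ± 0.14 and -0.36 ± 0.16, limma adjusted p = 0.234 and 0.255). Sdha, the catalytic subunit, behaved differently in that control 2, at 135 TPM, was the lowest library. Its DIC values were 155, 138 and 159 TPM, with 195 and 165 TPM in controls 1 and 4, and its log2 fold change of -0.12 ± 0.16 was close to the median of all tested genes.

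In complex III the median log2 fold change was -0.51 for the 2 subunits with redox centres, -0.47 for the 5 small subunits and -0.27 for the 2 core proteins, differences that were not tested. The median of the core proteins was -0.10 without control 1, and with the neutrophil list removed the 3 medians were -0.30, -0.26 and -0.06. Uqcrfs1, the Rieske iron-sulfur protein, measured 143, 142 and 138 TPM in DIC, against 255, 153 and 233 TPM in controls 1, 2 and 4 (log2 fold change -0.56 ± 0.20, limma adjusted p = 0.214). The DIC values were tightly grouped, and the controls spread more widely. Cyc1, which encodes cytochrome c1, had a log2 fold change of -0.45 ± 0.18, with control 2 at 224 TPM just below DIC 2 at 229 TPM. Uqcrh, the acidic hinge subunit, had the lowest p of the complex. It measured 298, 301 and 316 TPM in DIC, against 462, 373 and 438 TPM in the controls, so that control 2 also lay clear of the DIC libraries (305 ± 9.86 against 424 ± 46.3 TPM, log2 fold change -0.47 ± 0.13, limma adjusted p = 0.212).

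Uqcr11, a small membrane subunit with the highest mean of the complex over all 6 libraries, was at 639.7, 822 and 742 TPM in DIC, against 1377, 858 and 1125 TPM in the controls (log2 fold change -0.59 ± 0.21, limma adjusted p = 0.214). Its groups did not overlap, although DIC 2 and control 2 were close. Uqcrq and Uqcr10 had log2 fold changes of -0.60 and -0.46, again without overlap. The small subunit Uqcrb, at 809, 813 and 929.7 TPM in DIC and 1124, 874 and 981 TPM in the controls, was above Uqcr11 in DIC 1, DIC 3 and control 2 (log2 fold change -0.22 ± 0.15). The core proteins Uqcrc1 and Uqcrc2, which face the matrix, had log2 fold changes of -0.25 ± 0.21 and -0.29 ± 0.14. In Uqcrc1 control 4, at 282 TPM, lay within the DIC range of 263 to 342 TPM. Cycs, somatic cytochrome c, was at 88.7, 103 and 115 TPM in DIC, against 192, 104 and 157 TPM in controls 1, 2 and 4. Control 2 lay inside the DIC range, and the log2 fold change was -0.52 ± 0.23 (limma adjusted p = 0.259).

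Complex IV showed the widest range of fold changes and holds tissue-specific paralogues and both members with positive values. Of its 19 members, 15 were tested and 13 had negative log2 fold changes. The groups did not overlap in 7 (46.7%), against 18.4% of all tested genes. Among the ubiquitous subunits, Cox4i1, the main form of subunit 4, measured 558, 625 and 616 TPM in DIC, against 1067, 665 and 977 TPM in the controls. No DIC library reached a control (log2 fold change -0.56 ± 0.20, limma adjusted p = 0.216). Cox8a was at 601, 730.4 and 645 TPM in DIC, against 1113, 759 and 1146 TPM in the controls, with the same separation (log2 fold change -0.59 ± 0.20, limma adjusted p = 0.212). Cox5a and Cox5b encode different subunits despite their names. Cox5b was found at 609, 652 and 603 TPM in DIC and 1009.6, 716 and 972 TPM in the controls, without overlap (621 ± 27.0 against 899 ± 159 TPM, log2 fold change -0.52 ± 0.17, limma adjusted p = 0.212). Cox5a was found at 495, 562 and 556 TPM in DIC and 812, 551 and 721 TPM in the controls, with control 2 below DIC 2 and DIC 3 (log2 fold change -0.35 ± 0.17).

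Cox7a2l encodes a factor that helps to join complexes III and IV into supercomplexes and is a relative of the Cox7a subunits. It was at 73.2, 82.7 and 79.7 TPM in DIC, against 121, 92.8 and 129 TPM in the controls, without overlap (log2 fold change -0.52 ± 0.15, limma adjusted p = 0.212). The Cox7a subunit that most cells use, Cox7a2, was found at 535, 457 and 557 TPM in DIC and 705, 522 and 599.8 TPM in the controls, with overlap (log2 fold change -0.23 ± 0.16). Cox7b and Cox7c are small membrane subunits whose groups also overlapped. Cox7b was found at 387, 289 and 422 TPM in DIC and 496, 339 and 379 TPM in the controls, and Cox7c averaged 676 ± 53.6 against 766 ± 132 TPM. For Cox7b the log2 fold change of -0.14 ± 0.20 was smaller than its error, and it became 0.02 without DIC 2 and 0.01 without control 1.

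Cox6c and Cox6b2 did not share the pattern of the other subunits. Cox6c, a small membrane subunit among the most abundant of the complex, was at 763, 700.0 and 813 TPM in DIC, against 733, 673 and 767 TPM in controls 1, 2 and 4. Its groups overlapped almost fully, and its highest library was DIC 3 (log2 fold change 0.07 ± 0.13, limma adjusted p = 0.8). Cox6b2, the form of subunit 6b known from testis, was at 84.0, 64.7 and 74.5 TPM in DIC, against 59.9, 74.4 and 61.3 TPM in the controls. DIC 1 was the highest library and control 1 the lowest, the reverse of nearly all other members, yet the groups overlapped (log2 fold change 0.19 ± 0.15, limma adjusted p = 0.497, and -0.23 with the neutrophil score as a covariate). Its ubiquitous partner Cox6b1 measured 546, 572 and 622 TPM in DIC, against 881, 621 and 799 TPM in the controls. Cox6b2 therefore made up 13.3%, 10.2% and 10.7% of the TPM of both genes in DIC and 6.37%, 10.7% and 7.12% in the controls. This share does not depend on the scaling of a library, and it overlapped between the groups (exact two-sided permutation test p = 0.3, 0.56 after Benjamini-Hochberg adjustment over the 7 shares examined). With 3 libraries against 3 the exact test cannot give a p below 0.1.

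The promoters of these paralogues are shown because their levels take different courses over the libraries. Each window runs from 250 bases before to 50 bases after the RefSeq transcription start, 5′ to 3′ on the strand of the gene (GRCm38.p6, minus strand, chr7:30626065-30626364 for Cox6b1 and chr7:4753045-4753344 for Cox6b2). Capitals mark matches on either strand to 6 motifs described below.
Cox6b1: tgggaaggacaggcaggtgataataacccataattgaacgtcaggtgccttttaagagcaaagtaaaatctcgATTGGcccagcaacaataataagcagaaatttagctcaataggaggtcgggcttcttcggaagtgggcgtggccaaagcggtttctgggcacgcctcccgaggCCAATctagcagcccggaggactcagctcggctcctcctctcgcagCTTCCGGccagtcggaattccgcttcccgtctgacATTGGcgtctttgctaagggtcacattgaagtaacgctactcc
Cox6b2: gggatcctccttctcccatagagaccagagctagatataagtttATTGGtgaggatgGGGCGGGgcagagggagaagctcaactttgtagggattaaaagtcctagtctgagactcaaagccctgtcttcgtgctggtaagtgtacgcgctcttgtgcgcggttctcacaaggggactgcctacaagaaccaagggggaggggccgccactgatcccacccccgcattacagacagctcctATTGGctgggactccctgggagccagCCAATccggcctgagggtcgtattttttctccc
Cox6b1 holds an ETS match (CCGGAAG, here as its reverse complement) 28 bases before the start and 3 CCAAT matches. Cox6b2 holds no ETS match in this window, 3 CCAAT matches and a GC box (GGGCGGG).

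The heart and muscle paralogues of complex IV were low or listed at 0. Cox6a2, the muscle form of subunit 6a, was at 3.45, 5.09 and 5.59 TPM in DIC, against 13.7, 10.7 and 11.8 TPM in the controls. Every DIC library lay well below every control, control 2 included, and the log2 fold change was -1.21 ± 0.21 (limma adjusted p = 0.212). It was the most negative of the members at a pseudocount of 1, while at 0.1 Cox4i2 (-1.99) and Cox7a1 (-1.66) passed Cox6a2 (-1.36). Without DIC 2 Cox7a1 (-1.60) and Cox4i2 (-1.31) passed it (-1.26), and without control 2 Cox4i2 (-1.46) did (-1.28). Its ubiquitous partner Cox6a1 measured 651, 726 and 728 TPM in DIC, against 1085, 734 and 1007 TPM in the controls, so that Cox6a2 made up 0.528%, 0.697% and 0.762% of the pair in DIC and 1.25%, 1.44% and 1.15% in the controls. These shares did not overlap and gave the smallest p that the exact permutation test can reach, 0.1 (0.35 adjusted over the 7 shares). In the annotation Cox6a2 lies within Itgad on the opposite strand. Itgad averaged 0.63 TPM, and reads of the pair could be mixed because no use of strand is stated.

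Cox7a1, the muscle form of subunit 7a, was at 0.59, 3.71 and 0.79 TPM in DIC, against 4.79, 3.79 and 3.79 TPM in the controls. DIC 2 nearly reached the controls, and the log2 fold change of -1.10 ± 0.42 rests on DIC 1 and DIC 3 (limma adjusted p = 0.221). Cox4i2, the hypoxia-inducible form of subunit 4 known from lung, was listed at 0 in DIC 1 and was at 1.61 and 0.38 TPM in DIC 2 and 3 and at 4.69, 0.39 and 2.11 TPM in the controls. Its values overlapped and differed as much within a group as between groups. Cox7b2 and Cox8c were listed at 0 in every library, Cox8b in every library other than control 2 (0.53 TPM), and so was Cox6c2, a processed pseudogene by its annotated type. These 4 genes and a second Atp5o entry, whose model spans neighbouring genes and which was also listed at 0, were the 5 members that were not tested.

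**Figure D2:**
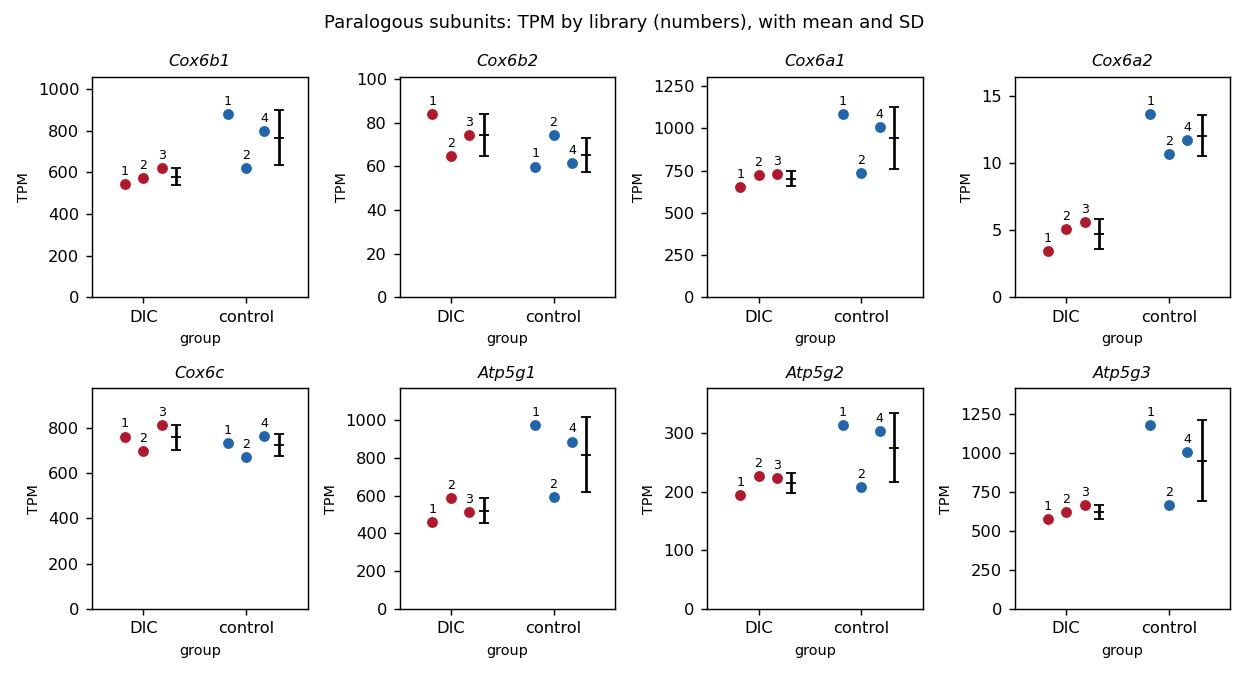
TPM (vertical axis, from 0) of 8 subunit genes in the DIC and control libraries, each point a library labelled with its number, beside the mean and SD of its group. Cox6a2 separates the groups, Cox6b2 and Cox6c do not share the lower DIC levels of the others, and in the 3 c subunit genes control 2 lies with the DIC libraries.

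In complex V all 17 tested members had negative log2 fold changes, from -0.63 for Atp5g1 to -0.23 for Atp5j. The groups did not overlap in 8 (47.1%), against 18.4% of all tested genes. The F1 head, in which ATP is made, had a median log2 fold change of -0.41 over its 5 subunits. Its catalytic beta subunit Atp5b was the most abundant member of all, at 1199, 1294 and 1246 TPM in DIC, against 1964, 1364 and 1687 TPM in controls 1, 2 and 4. The groups did not overlap (1246 ± 47.4 against 1672 ± 300.2 TPM, log2 fold change -0.41 ± 0.18, limma adjusted p = 0.249). The delta subunit Atp5d measured 191, 229 and 224 TPM in DIC, against 362, 249 and 324 TPM in the controls, again without overlap (log2 fold change -0.52 ± 0.17, limma adjusted p = 0.212). The alpha subunit Atp5a1, the gamma subunit Atp5c1 and the epsilon subunit Atp5e had log2 fold changes of -0.39, -0.28 and -0.48, and in Atp5e DIC 2, at 494 TPM, lay above control 2 at 479.6 TPM.

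The peripheral stalk holds the head in place while the ring turns. Its member Atp5o, the subunit that confers oligomycin sensitivity, measured 229, 244 and 243 TPM in DIC, against 464, 288 and 369 TPM in the controls, with no overlap (239 ± 8.39 against 374 ± 88.2 TPM, log2 fold change -0.62 ± 0.18, limma adjusted p = 0.212). The other stalk subunits differed less. Atp5f1 (subunit b), Atp5h (subunit d) and Atp5j (coupling factor 6) had log2 fold changes of -0.25, -0.25 and -0.23, all with overlap. In the annotation Atp5j overlaps Gabpa, which encodes an ETS-family regulator of respiratory genes and lies on the opposite strand. Gabpa measured 17.8 ± 2.80 against 15.8 ± 0.70 TPM (log2 fold change 0.15 ± 0.16). The small membrane subunits Atp5j2, Atp5k, Atp5l and Atp5mpl had log2 fold changes from -0.41 to -0.31. Atp5s, which encodes factor B and is not a core subunit, was by far the lowest tested gene of the complex at 20.7 ± 2.35 against 24.6 ± 1.13 TPM.

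The ring of c subunits is made from 3 genes on different chromosomes, Atp5g1, Atp5g2 and Atp5g3, which are known to encode the same mature protein behind different mitochondrial leader sequences. Atp5g1 was at 459, 590.1 and 514 TPM in DIC, against 974, 593 and 888 TPM in controls 1, 2 and 4 (log2 fold change -0.63 ± 0.21, limma adjusted p = 0.213). Atp5g3, the most abundant of the 3, measured 575, 625 and 669 TPM in DIC, against 1181, 666 and 1011 TPM in the controls (log2 fold change -0.57 ± 0.22, limma adjusted p = 0.226). In both, controls 1 and 4 stood far above all other libraries and control 2 was level with the highest DIC library. Atp5g2 was lower and varied less between libraries, at 195, 227 and 224 TPM in DIC and 314, 208 and 305 TPM in the controls (log2 fold change -0.34 ± 0.18, limma adjusted p = 0.332). As a share of the TPM of the 3 genes, Atp5g2 held 15.8%, 15.7% and 15.9% in DIC and 12.7%, 14.2% and 13.8% in the controls. That share did not overlap between the groups (exact permutation p = 0.1, the smallest possible, and 0.35 adjusted over the 7 shares), while the shares of Atp5g1 and Atp5g3 did.

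The promoters of the 3 c subunit genes are shown because the genes supply the same protein from separate loci (RefSeq, GRCm38.p6, minus strand, chr11:96075582-96075881 for Atp5g1, chr15:102670998-102671297 for Atp5g2 and chr2:73911277-73911576 for Atp5g3).
Atp5g1: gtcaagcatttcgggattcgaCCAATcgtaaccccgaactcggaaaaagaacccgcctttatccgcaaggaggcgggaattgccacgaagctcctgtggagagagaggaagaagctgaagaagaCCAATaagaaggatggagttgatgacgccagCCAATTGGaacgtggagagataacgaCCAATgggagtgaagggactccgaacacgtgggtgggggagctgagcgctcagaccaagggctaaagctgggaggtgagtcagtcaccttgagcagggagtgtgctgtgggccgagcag
Atp5g2: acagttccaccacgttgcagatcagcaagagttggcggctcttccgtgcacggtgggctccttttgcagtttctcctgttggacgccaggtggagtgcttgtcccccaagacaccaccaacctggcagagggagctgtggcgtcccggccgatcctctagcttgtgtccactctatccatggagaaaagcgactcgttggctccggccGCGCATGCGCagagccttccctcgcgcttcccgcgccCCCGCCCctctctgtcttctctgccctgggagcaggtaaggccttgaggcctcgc
Atp5g3: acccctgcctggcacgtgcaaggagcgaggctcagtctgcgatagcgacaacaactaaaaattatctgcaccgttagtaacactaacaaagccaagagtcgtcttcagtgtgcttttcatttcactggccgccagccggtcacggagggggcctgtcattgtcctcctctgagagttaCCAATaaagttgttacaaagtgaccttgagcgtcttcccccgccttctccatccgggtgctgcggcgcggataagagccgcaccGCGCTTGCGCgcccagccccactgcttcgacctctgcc
Atp5g2 and Atp5g3 each hold a match to the NRF1 motif (GCGC, then any base and T, then GCGC), the binding sequence of nuclear respiratory factor 1, a regulator of respiratory genes. The match starts 42 bases before the start site in Atp5g2 and at base 13 after it in Atp5g3. Atp5g1 holds no NRF1 match in this window and 5 overlapping or separate matches to CCAAT on either strand, against 1 in Atp5g3 and 0 in Atp5g2.

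Promoter windows were available for 35 of the 50 member symbols and were searched on both strands for 6 motifs. A gene was counted where any of its windows held a match. NRF1 matches (the letters given above) occurred in 10 of the 35 genes, or 28.6%, against 5.19% of all 27025 genes with a window and 12.1% of the 9188 genes that were also tested. ETS matches (CCGGAAG, the core read by GABP, whose subunits Gabpa and Gabpb1 are among the regulators below) occurred in 12 of 35, or 34.3%, against 9.93% and 21.6%. Sdhd, Cox6a1, Atp5h and Atp5k held both, and 18 of the 35 held at least 1 of the 2. YY1 matches (AANATGGCG) occurred in 3 of 35 (8.57%, against 2.76% and 6.51%) and CCAAT in 20 (57.1%, against 41.1% and 43.4%). GC boxes (GGGCGGG) occurred in 10 (28.6%, against 27.9% and 50.9%) and TATAAA in 3 (8.57%, against 15.7% and 8.50%). Of the TATAAA genes, Cox7b2 was listed at 0 in every library and Cox8b in all but control 2. A CCAAT match can overlap its own reverse complement, as in Atp5g1. These matches describe letters in the windows, not sites of binding.

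**Figure D3:**
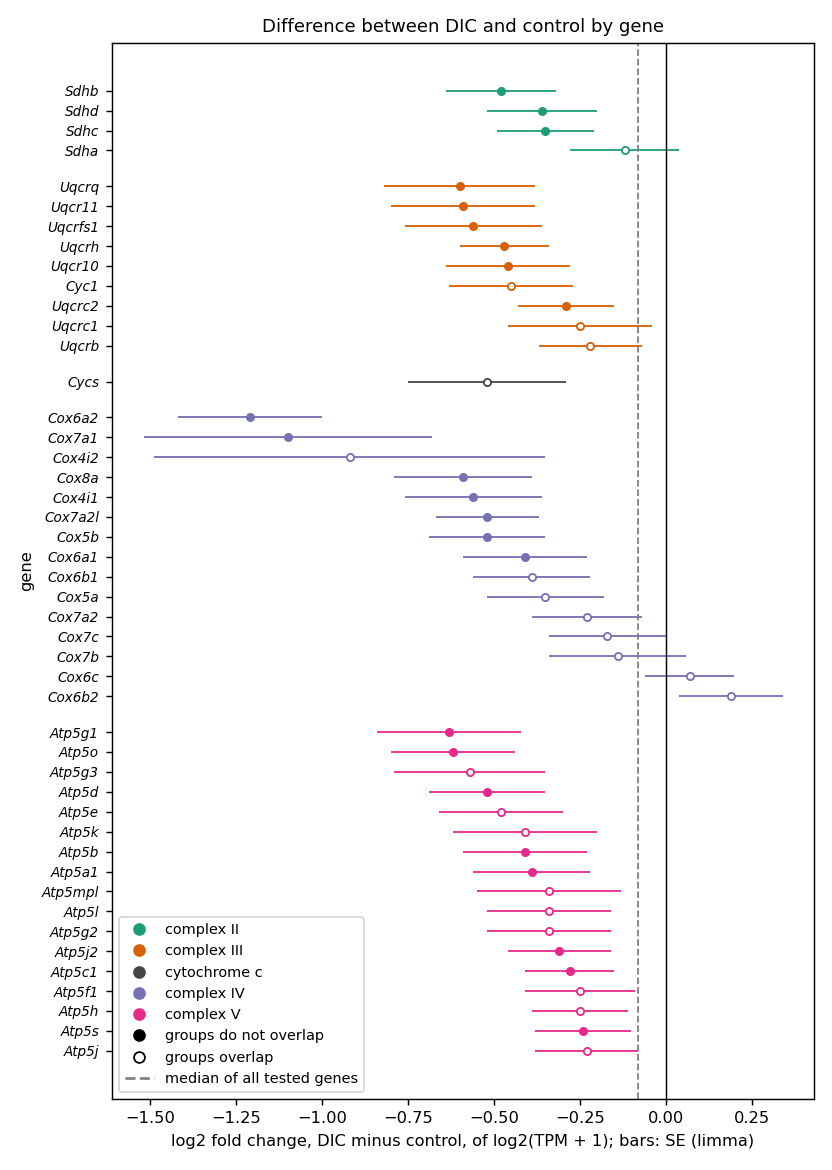
Log2 fold change (DIC minus control, of log2(TPM + 1), horizontal axis) with its limma SE for each tested gene, sorted within each complex, with filled points where the groups do not overlap and a dashed line at the median of all tested genes, -0.08. Of the 46 points 44 lie below 0, and the wide bars of Cox7a1 and Cox4i2 belong to genes under 5 TPM.

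Set side by side, the complexes had similar medians. The median log2 fold change was -0.35 for complex II, -0.46 for complex III, -0.52 for cytochrome c (1 gene), -0.41 for complex IV and -0.34 for complex V. Differences between these medians were not tested. Complex V took 43.2% to 44.0% of all member TPM in every library, complex IV 31.9% to 34.1%, complex III 18.3% to 19.9% and complex II 3.60% to 3.91%. The mean log2(TPM + 1) of complex V was 8.45, 8.53 and 8.59 in DIC 1, 2 and 3 and 9.14, 8.62 and 8.97 in controls 1, 2 and 4. For complex II it was 7.36, 7.37 and 7.39 in DIC and 7.92, 7.41 and 7.77 in the controls. In both complexes control 2 lay just above the highest DIC library. Relative to the mean log2 level of all tested members in the same library, complex II was at -0.48, -0.60 and -0.58 in DIC and at -0.66, -0.64 and -0.63 in the controls. This value was higher in every DIC library, but the mean weighs low genes as much as abundant ones. Cox4i2, Cox7a1 and Cox6a2, at most 13.7 TPM, were on average lower in DIC and lower that mean there. The value therefore cannot be read as a trait of complex II. The share of complex II in summed member TPM did overlap, at 3.91%, 3.70% and 3.60% in DIC and 3.60%, 3.64% and 3.65% in the controls. The relative log2 levels of complexes III, IV and V and of cytochrome c overlapped between the groups. Most subunits were abundant: 37 of the 46 tested members ranked in the top 10% of tested genes in every library. Across the 46 tested members, which share all libraries, the Spearman correlation of fold change with mean level was 0.122, given as a description. Over the 43 members with a mean of at least 10 TPM it was -0.074.

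**Figure D4:**
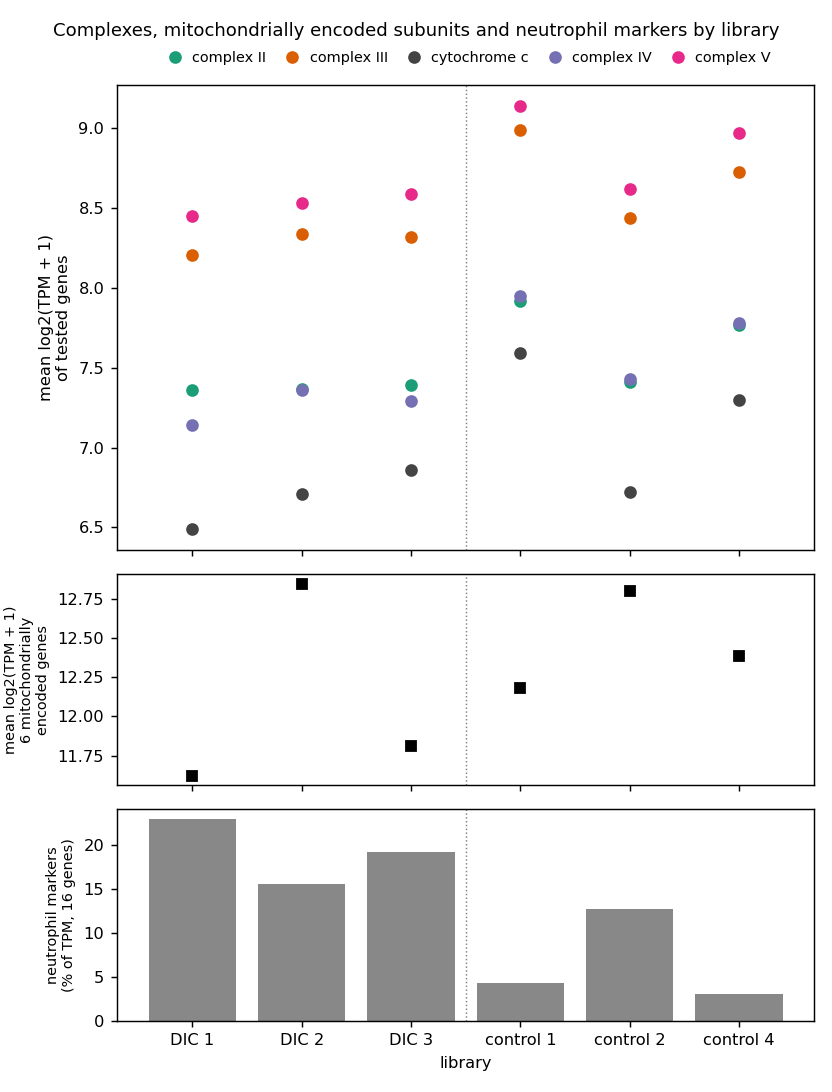
Upper panel, mean log2(TPM + 1) of the tested genes of each complex by library. Middle panel, the same mean for 6 mitochondrially encoded subunits. Lower panel, summed TPM of 16 neutrophil markers as a percentage of the library. Control 1 is the highest library in every complex, the mitochondrially encoded genes are highest in DIC 2 and control 2, and control 2 has 12.7% neutrophil marker TPM against 4.27% and 3.04% in the other controls.

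The partner subunits made from mitochondrial DNA did not follow the nuclear genes across libraries. The 6 mitochondrially encoded subunits of complexes III to V had a mean log2(TPM + 1) of 11.62, 12.85 and 11.81 in DIC 1, 2 and 3 and of 12.18, 12.80 and 12.39 in controls 1, 2 and 4. DIC 2 and control 2 were the highest libraries, whereas control 1 was the highest for the nuclear genes. The mt-Co1 gene, the catalytic subunit of complex IV, measured 3837, 9235 and 4606 TPM in DIC, against 5163, 8281 and 6351 TPM in the controls (log2 fold change -0.24 ± 0.37, limma adjusted p = 0.737). All 6 had negative log2 fold changes (median -0.25), all overlapped, and 0 passed. Their median was -0.09 without control 2, -0.42 without control 1, -0.56 after quantile normalization and -0.04 with the neutrophil list removed, and with the neutrophil score as a covariate it was 0.13 with 4 of 6 positive. The lowest p belonged to mt-Co3, another core subunit of complex IV (log2 fold change -0.92 ± 0.42, limma adjusted p = 0.27), and mt-Atp8, a subunit of complex V, followed (-0.30 ± 0.38, adjusted p = 0.685). The mean log2 level of the nuclear members minus that of the mitochondrially encoded genes was -3.78, -4.88 and -3.84 in DIC and -3.60, -4.74 and -4.00 in the controls, so that the balance varied more within a group than between groups.

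Control 2 decided whether single subunits passed the test. For 43 of the 46 members it was the lowest of the 3 controls. Leaving it out therefore raises their control mean and keeps only controls 1 and 4, so calls made without it are no support for a difference. Without it, 26 of the 46 members were lower in DIC at a limma adjusted p under 0.05 and 0 were higher, while 8.45% of all tested genes were lower and 3.93% higher. The 26 comprised 3 of 4 in complex II, 5 of 9 in complex III, Cycs, 8 of 15 in complex IV and 9 of 17 in complex V. The lowest adjusted p among them was that of Uqcrq at 0.0162, and the log2 fold change of Atp5o was -0.79. The median over the members became -0.54, beside -0.07 over all genes, and 42 members separated the groups without overlap, against 30.9% of all tested genes. The 20 members that did not pass even then included Sdha, Cox6c, Cox6b2 and Cox7b. Leaving out control 1 instead, the highest library for 40 members, gave a member median of -0.27, beside -0.09 over all genes. The members then lay -0.18 from all genes, against -0.32 with all 6 libraries. In that fit 0 members passed the adjusted threshold. An unadjusted limma p under 0.05 was found for 4 members (8.7%), against 1533 of all 13496 tested genes, where 20 members had it with all libraries.

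The size of the difference depended on some settings and not on others. With the 16 neutrophil markers removed and TPM rescaled, the median over the members was -0.19 while that over all tested genes moved from -0.08 to 0.10. The members' median thus lay -0.29 from that of all genes, beside -0.32 before. In that setting 41 members were negative, against 38.9% of all genes tested there, and 10 separated the groups without overlap, against 7.72% of all genes tested there. These 10 were Uqcr11, Uqcrh, Cox5b, Cox6a2, Cox7a2l, Cox8a, Atp5a1, Atp5b, Atp5d and Atp5o. Quantile normalization gave a member median of -0.14, beside -0.04 over all tested genes, so that the members lay only -0.10 from all genes. In that setting 34 members were negative (54.4% of all tested genes were). Centring each library on its median gave -0.39 with 11 members that did not overlap, against 14.6% of all tested genes. Removal of the mitochondrially encoded genes left the median at -0.41. The neutrophil score of each library (its mean log2(TPM + 1) over the 16 markers) was also used as a covariate. The members' median was then -0.05, beside -0.10 over all genes, and 30 members (65.2%) were negative, against 66.9% of all tested genes. All 16 markers had positive log2 fold changes in the main fit and 13 separated the groups, so the score varies largely with the group. The fit with the score therefore cannot tell the group difference from the score, and nothing is concluded from it about the members. No member passed limma's adjusted threshold in any of these 4 settings (0 in each). At an unadjusted p under 0.05 there were 10 members with the neutrophil list removed, where 16.1% of all genes tested there passed, and 15 after centring, against 18.7%. After quantile normalization 7 members (15.2%) passed, against 17.4% of all tested genes, which is no more than the background. With the covariate few genes of any kind passed, 1 member (2.17%) against 2.3% of all tested genes.

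**Figure D5:**
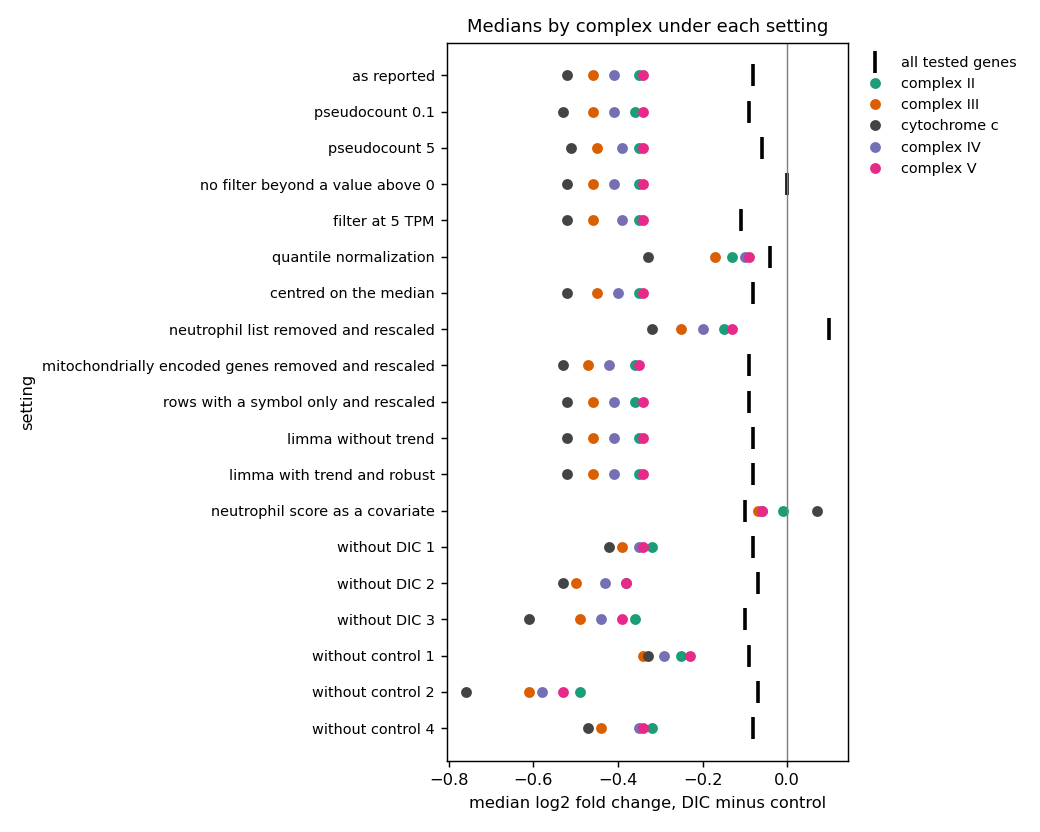
Median log2 fold change (horizontal axis) of each complex (coloured points) and of all tested genes (black bars) under each setting (rows). Medians are negative for every complex in all settings except that cytochrome c is at 0.07 with the neutrophil score as a covariate. They are nearest to 0 after quantile normalization, after removal of the neutrophil list and with that covariate, and farthest from 0 without control 2.

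Other genes of the pathway, from lists chosen with earlier results of these data known, are given with the same fit. None had a member past the threshold (0 of each list). Of 41 genes listed with the assembly factors of complexes II to V, among them Ndufa4, Lrpprc and Slirp, 31 had negative and 10 positive log2 fold changes, with a median of -0.28. With the neutrophil list removed 18 were positive and the median was -0.08. Cox19 and Uqcc3, assembly factors of complexes IV and III, had the lowest p, at 30.4 ± 1.12 against 41.8 ± 2.23 TPM and 39.8 ± 0.93 against 55.0 ± 5.21 TPM (log2 fold change -0.45 each, limma adjusted p = 0.212 each). Cox19 was at 29.6, 31.7 and 29.9 TPM in DIC, against 44.4, 40.2 and 40.9 TPM in the controls, and control 2 did not approach the DIC libraries there. All 18 genes of the citric acid cycle and pyruvate dehydrogenase were negative (median -0.24), but with the neutrophil list removed 7 of 18 were positive (median -0.03), and without control 1 the median was -0.14. Among them Fh1, fumarate hydratase, which uses the product of complex II, was at 73.3, 73.5 and 75.1 TPM in DIC, against 134, 96.3 and 101 TPM in the controls, and Idh3g, a subunit of isocitrate dehydrogenase, at 228 ± 24.1 against 348 ± 60.3 TPM (limma adjusted p = 0.212 each).

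The nuclear regulators had mixed directions. Of 13 tested regulators of mitochondrial gene expression, 7 had negative and 6 positive log2 fold changes, with a median of -0.06. With the neutrophil list removed 10 were positive and the median was 0.14. Nrf1, which encodes nuclear respiratory factor 1, measured 33.0 ± 4.25 against 35.3 ± 3.08 TPM, and its groups overlapped (log2 fold change -0.10 ± 0.14). Tfb2m and Polrmt, the transcription factor and the RNA polymerase of mitochondrial DNA, had the lowest p of the list. Tfb2m was at 14.7, 14.6 and 13.5 TPM in DIC, against 17.8, 19.9 and 22.3 TPM in the controls (log2 fold change -0.46 ± 0.14, limma adjusted p = 0.212), and Polrmt measured 12.8 ± 2.55 against 18.1 ± 2.60 TPM (limma adjusted p = 0.23). Ppargc1a, the coactivator PGC-1α, was at most 0.1 TPM in DIC and 1.18 TPM in a control, and neither it nor Ppara was tested.

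Complex I and the mitochondrial ribosome, the most similar gene groups, had medians close to that of complexes II to V. In complex I 36 of 37 tested subunits had negative log2 fold changes, with a median of -0.36. The groups did not overlap in 24 (64.9%), against 18.4% of all tested genes. Ndufs8 and Ndufa11, a core and an accessory subunit, had its lowest p, at 242 ± 20.0 against 357 ± 51.6 TPM and 212 ± 37.2 against 325 ± 48.0 TPM. Of the 78 mitochondrial ribosomal proteins all were negative, with a median of -0.41, and 47 (60.3%) separated the groups, against the same 18.4%. Mrps26 and Mrpl11 had the lowest p there, at 44.8 ± 4.88 against 65.4 ± 4.84 TPM and 33.5 ± 2.61 against 52.4 ± 8.26 TPM. Mean log2(TPM + 1) of complex I was 7.62, 7.69 and 7.74 in DIC and 8.22, 7.77 and 8.07 in controls 1, 2 and 4, the same order of controls as in complexes II to V. With the neutrophil list removed 7 complex I genes and 9 ribosomal genes were positive, with medians of -0.15 and -0.20. The summed levels of 4 other marker lists separated the groups, all lower in DIC. Basophil and mast cell genes summed to 301 to 481 TPM in DIC and 910 to 3372 TPM in the controls. Genes of stem cells and multipotent progenitors summed to 225 to 281 against 385 to 386 TPM. Its most abundant genes, Cd48 (-0.67) and Cd34 (-0.51), were lower. Of the 6 tested, 3 had negative log2 fold changes and 3 did not (Mecom 0.64, Hlf 0.34 and Procr 0.00). B lineage genes summed to 101 to 191 against 206 to 466 TPM. Macrophage and dendritic cell genes summed to 48.7 to 56.5 against 56.7 to 70.8 TPM, a narrow gap. Of these 6 genes 2 were negative (Siglech -1.04 and Csf1r -0.59) and 4 positive, with a median of 0.06, so only the sum was lower. Erythroblast genes, at 647 to 1914 against 514 to 701 TPM, overlapped, since DIC 2 lay below control 2, and T and NK cell genes, at 1312 to 1786 against 1759 to 2222 TPM, also overlapped. No marker of these lists was at 0 in any library apart from 1 T and NK cell gene in DIC 2, and their part in the subunit levels was not tested.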

How the data were processed

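Per the labels' protocols, TRIzol RNA of sorted LSK cells went into SMART-Seq libraries for paired-end sequencing. The deposited data are TPM values by the authors for 6 libraries in 56750 rows, and each library sums to 1000000. The submitters' processing notes name fastp 0.19.5, HISAT2 2.1.0, StringTie 2.1.2 and the build GRCm39, without their settings. The annotation release was not given in the sources used. TPM keeps no depth, so no counting interval could be given, and reads of near-identical genes or processed pseudogenes can be divided among rows. No value column was left unused (0).

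Symbols came from GENCODE M21 (GRCm38) by gene identifier, which named 52081 rows and left 4669 without one. Coordinates are given for RefSeq promoter windows only, on GRCm38.p6. Libraries were grouped by treatment. Control columns 1 and 4 entered as libraries of the group only, because 1 control sample bears different numbers in its title and its description.

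Genes that reached 1 TPM in 3 or more libraries were fitted as log2(TPM + 1) in limma 3.58.1 (R 4.3.3), using its trend option and a model of group alone. Two-sided p-values were adjusted by Benjamini-Hochberg over the 13496 tested genes, with a threshold of 0.05. Fold changes on this scale understate the change of low genes. On simulated data for this comparison (13496 genes) the fit recovered 39.5% of genes changed by a log2 of 1 and 79.7% at 2, with 36 false among 625 calls. The noise was drawn for each gene on its own, whereas the members here shared much the same order of libraries, so these rates need not hold for the real data. Recovery of smaller changes, such as the member median of -0.4, was not tested. Shares were compared with an exact permutation test in SciPy 1.17.1.

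Alternatives were pseudocounts of 0.1 and 5, other filters, scalings and variance models, a covariate, and each library left out. The members, gene lists and tests were chosen with earlier results of these data known. Values in every library are given for the most abundant member and the 3 with the lowest p in each complex, for members with positive fold changes and for paralogue sets. In the other lists the 2 genes with the lowest p are named. Other members and genes with printed values were chosen after their values were seen. Promoter motifs were also chosen then.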

Additional observations from a re-analysis of the deposited data

How the results depend on the processing

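No paired analysis was possible because the control columns share only the number 2 with the DIC columns in a way that can be tied to single samples. No member passed in the 12 settings of pseudocount, filter, scaling, variance model or covariate, nor with a library other than control 2 left out, and without control 2, 26 were lower, so the count of members called lower ran from 0 to 26. Over all genes, calls with 1 library left out ran from 0 to 1141 lower and from 0 to 530 higher. Lower calls were 1 after quantile normalization and 0 without a filter or with the neutrophil score as a covariate. Higher calls were 2 and 3 with pseudocounts of 0.1 and 5, and 0 without a filter or with that covariate.

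The member median was -0.14 after quantile normalization, -0.19 with the neutrophil list removed and -0.05 with the covariate. In the same order it was -0.13, -0.15 and -0.01 for complex II, -0.17, -0.25 and -0.07 for complex III, -0.10, -0.20 and -0.06 for complex IV and -0.09, -0.13 and -0.06 for complex V, and with the covariate it was 0.07 for cytochrome c. Members without overlap, an alternative chosen after seeing the data, numbered 42 without control 2, 10 with the neutrophil list removed and 11 after centring on the median. In the same order the shares of all genes tested there were 30.9%, 7.72% and 14.6%. The direction turned for 16 of the 46 tested members with the covariate, 10 after quantile normalization and 3 with the neutrophil list removed. Among the members given in every library by rule, it turned with the covariate for Sdhd (0.00), Cycs (0.07), Cox4i2 (0.89), Cox5a (0.06), Cox6a1 (0.04), Cox6b2 (-0.23), Cox8a (0.00), Atp5g1 (0.03) and Atp5g2 (0.19). Among the same members it also turned for Cox7a2 after quantile normalization (0.08), and for Cox7b after quantile normalization (0.14), with the neutrophil list removed (0.06), and with 1 library left out, where its values ran from -0.26 to 0.02 and were above 0 without DIC 2 (0.02) and without control 1 (0.01). The cause of these changes was not tested. TPM gives no depth, so values under 5 TPM such as those of Cox7a1 and Cox4i2 have an unknown counting error.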
